A study of Homo sapiens with 47 samples.

Results

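The 10 genes described here encode proteins of the extracellular matrix: the thrombospondins *THBS1* and *THBS2*, tenascin C (*TNC*), fibronectin (*FN1*), *SPARC*, periostin (*POSTN*), versican (*VCAN*), fibrillin 2 (*FBN2*), *EGFLAM* and *MAMDC2*. They were listed by name because several of them had shown some of the largest differences of the mesenchymal fraction at passage 5 (P5), so they were chosen by the measured differences between the P5 fractions, and their values there are a description and were not tested. All 10 were found among the 58051 genes of each library. The cells were WA09 (H9), an established human embryonic stem cell (hESC) line, grown without feeders on Matrigel, itself a basement membrane extract. Undifferentiated cells (t0) were compared with NMP-like cells, the neuromesodermal progenitor stage after 36 h in N2B27 without vitamin A (36 h). The medium held the growth factor rhFGF2, the WNT agonist CHIR-99021, the ROCK inhibitor Y-27632 and AGN193109, which blocks retinoic acid receptors. Cells replated in these supplements were sampled at each passage from P1 to P10 as whole cultures, which the labels call neural progenitors. The study describes them as heterogeneous at P1 and, at P5, as pre-neural progenitors (PNPs) beside neural crest (NC) cells. It proposes that cells stay pre-neural up to P8 and at P9 differentiate further into a more terminal, sacral type enriched for NC markers. At P5 and P8 these cultures were also parted by TrypLE, an enzyme used to lift one cell type before the other, into a fraction enriched for epithelial cells (EPI, the PNPs) and a fraction enriched for mesenchymal cells (MES, the NC cells). The 47 libraries were 35 whole cultures and 12 fractions, from 3 experiments called r1 to r3, with 2 libraries at P9 and 3 in each of the other groups. All experiments used this single cell line, and the fractions were enriched and not pure.

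The extracellular matrix is the network of secreted proteins on which cells sit and migrate. Matricellular proteins such as thrombospondins, tenascin C, SPARC and periostin bind this network and cell surface receptors and are known for tuning adhesion more than for building the scaffold. Fibronectin is a main fibril that integrins bind, versican is a large chondroitin sulphate proteoglycan that surrounds the paths of migrating NC cells in the embryo, and fibrillin 2 builds the microfibrils of embryonic tissue. A gain of fibronectin is a textbook sign of a change from an epithelial to a mesenchymal cell. RNA was measured here, not the proteins or their deposition.

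Depth and identity of the libraries bear on what follows. Expected counts summed to between 13029491 and 64082859 per library, with a median of 47292229. Each member reached at least 3 counts in every library, with *THBS2* the lowest at 3. P1 of experiment r1 lay closer to the 36 h libraries (mean distance 0.842, the root mean square of log2 differences over 13293 genes) than to the other P1 libraries (1.21), and P10 of experiment r1 lay closer to P8 (0.578) than to the other P10 libraries (1.26). Of 11 NC markers, 10 were higher and 1 lower in MES than in EPI in each of the 3 experiments at P5, and 7 higher and 1 lower at P8. Their summed TPM (RSEM's estimate of transcript abundance, scaled by transcript length and to a fixed total per library) ran from 194 to 390 in P5 EPI, from 601 to 779 in P5 MES, from 226 to 1027 in P8 EPI and from 455 to 1404 in P8 MES, so that the ranges were apart at P5 and overlapped at P8. All 11 NC markers had more than 3 counts in each of the 12 fraction libraries. The summed TPM of 7 epithelial PNP markers, *CDX2* and *SOX2* among them, ran from 466 to 723 in P5 EPI, from 88.0 to 257 in P5 MES, from 187 to 653 in P8 EPI and from 53.2 to 462 in P8 MES. Of these markers, 0 were higher and 6 lower in MES in each experiment at P5, and 1 higher and 4 lower at P8. All 5 smooth muscle and fibroblast markers (*ACTA2*, *TAGLN*, *CNN1*, *MYH11* and *PDGFRB*) were higher in MES in each experiment at P5 and at P8, with summed TPM from 152 to 261 in P5 EPI, from 637 to 1025 in P5 MES, from 268 to 1680 in P8 EPI and from 350 to 2123 in P8 MES. Of 4 lateral plate and limb markers (*PRRX1*, *HAND2*, *PITX1* and *TBX4*), 2 were higher and 1 lower in MES in each experiment at P5 and 0 either way at P8, with summed TPM from 181 to 256 in P5 EPI, from 289 to 376 in P5 MES, from 212 to 378 in P8 EPI and from 230 to 385 in P8 MES. The P5 fractions were also apart in 4 neuron markers (192 to 290 TPM in EPI and 76.3 to 163 TPM in MES) and 4 endothelium markers (0.85 to 1.51 TPM and 1.79 to 5.34 TPM), in each of which 1 marker was higher and 1 lower in MES in all 3 experiments. In bulk RNA, fewer cells of a type and less RNA per cell cannot be told apart.

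To compare the members with each other, levels were read as TPM. *SPARC*, a collagen-binding glycoprotein, had the highest mean of the 10 members in each of the 16 groups, from 267.7 TPM at 36 h to 7725 TPM at P8, where it ranked 5 among all genes. In the P8 culture of experiment r2 *SPARC* alone held 1.23% of all TPM. *VCAN* came next at t0 (85.7 TPM) and at P5 (308.5 TPM), while at P8 *FN1* (255.0 TPM) and *VCAN* (227.3 TPM) lay close together. *MAMDC2* (0.443 to 8.94 TPM as group means) and *THBS2* (0.277 to 9.94 TPM) stayed low throughout. The spread between experiments was wide: *SPARC* ranged from 5404 to 12302 TPM at P8, and *FN1* and *VCAN* could not be ordered there within their spread, with SDs of 81.9 and 75.8 TPM.

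The whole cultures answer how each gene changed from hESCs through NMP-like cells to PNP/NC cultures. In what follows, levels are normalized counts, which are counts scaled for library size and composition and may be compared between libraries of a gene but not between genes. A member passed when edgeR's quasi-likelihood test, with the experiment as a block, gave an adjusted p under 0.01, where the change was 2-fold or more and the libraries compared averaged 100 normalized counts or more. Shares of genes that passed were taken over all genes tested, including those under that average, which could not pass.

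**Figure D1:**
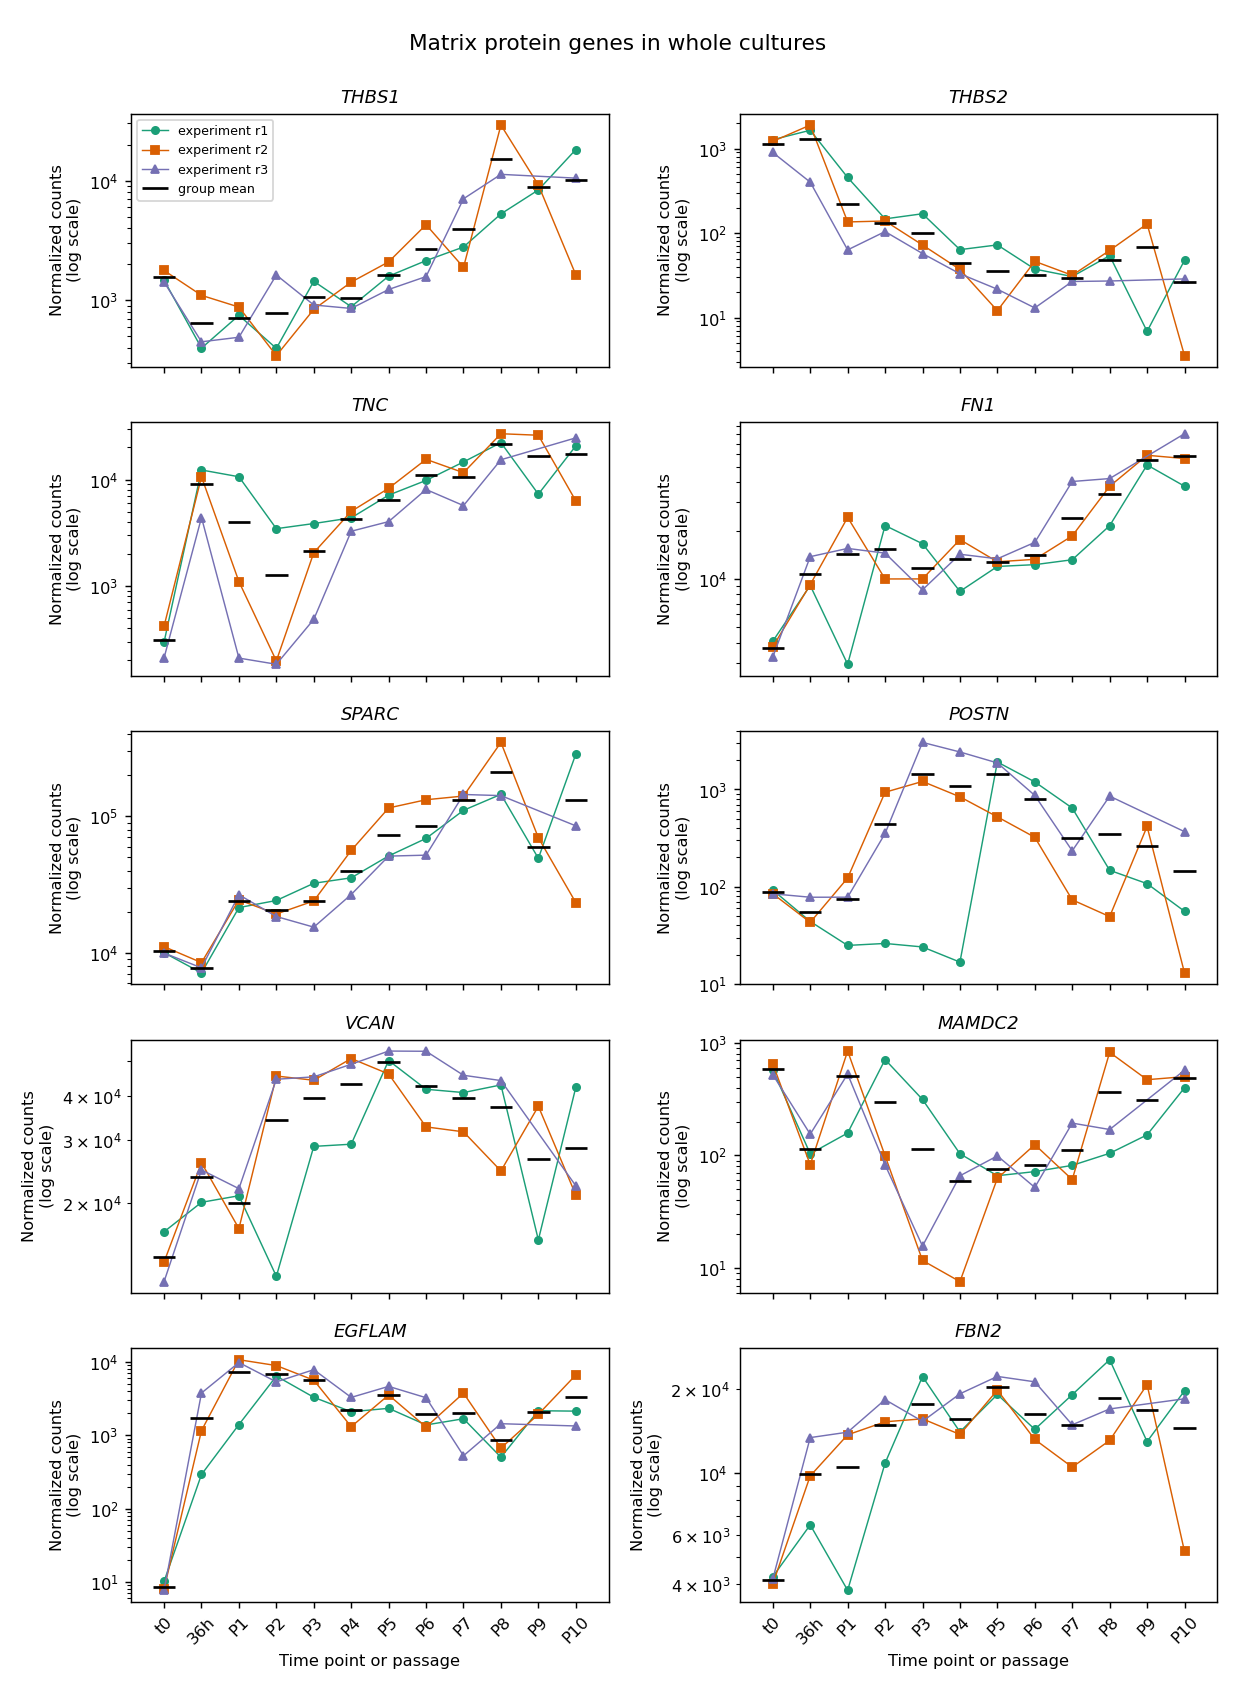
Normalized counts (log scale) of the 10 genes in whole cultures, by time point and passage, with 1 line per experiment and a black bar for the group mean. P9 has no library of experiment r3, so its line runs from P8 to P10. *SPARC*, *FN1*, *TNC* and *THBS1* reach their highest group means at P8 or P10, while *THBS2* is highest at 36 h and *EGFLAM* at P1.

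*TNC*, a hexameric adhesion-modulating glycoprotein of migratory routes and wounds, had a pair of high phases. It stood at 296.8, 419.7 and 210.8 normalized counts at t0 and at 12288, 10605 and 4395 at 36 h, in the order r1 to r3, with no overlap. It rose at 36 h, with a log2 fold change of 4.75 ± 1.00 (SE) and an adjusted p of 0.0027 in edgeR. At P1 the experiments parted, with 10615, 1099 and 210.1, and r1 is the library that lay near the 36 h state. At P2 *TNC* was at 3453, 197.7 and 183.8. Its group mean was then 2133 at P3, 6475 at P5 and 21491 ± 5825 (SD, n = 3) at P8, and the 3 P8 libraries lay above all those at P5.

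*EGFLAM*, also called pikachurin, a laminin G domain protein known from photoreceptor synapses, was almost silent in hESCs. Its counts were 10.2, 8.07 and 7.69 at t0 and 292.6, 1163 and 3788 at 36 h. The gene rose, by 7.41 ± 1.00 (SE) as a log2 fold change, at an edgeR adjusted p of 2.5e-05. The study names *EGFLAM* among genes raised in NMP-like cells, so this change is not independent of how the gene came to be listed. P1 gave 1406, 10783 and 9870, the highest group mean of the course, and P8 gave 503.5, 670.2 and 1444. At 36 h the experiments took the same order in the paraxial mesoderm markers, and at P1 r1 was the lowest in both. These markers (*TBX6*, *MSGN1* and 5 others) had a summed TPM of 8.95, 131.6 and 632.1 at 36 h and 7.64, 396.4 and 486.6 at P1. Their part in the level of *EGFLAM* was not tested.

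At 36 h against t0, 2 of the 10 members passed as higher (*TNC* and *EGFLAM*) and 0 as lower, against 1.32% of all 21750 genes tested that passed as higher and 1.37% as lower. Since the rise of *EGFLAM* is not independent of its listing, this count is a description. The median log2 fold change was 0.40 over the members and 0.00 over all genes. *FN1* (log2 fold change 1.49 ± 0.47, adjusted p 0.040, edgeR) and *FBN2* (1.23 ± 0.40, adjusted p 0.047) were higher at 36 h in all 3 experiments without passing. Leaving out experiment r2 left 0 members past the threshold (*TNC* adjusted p 0.077, *EGFLAM* 0.013), leaving out r3 left *EGFLAM* alone (*TNC* adjusted p 0.050), and leaving out r1 gave 4, with *FN1* and *FBN2*.

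*SPARC* was slightly lower at 36 h than at t0 and higher at P1, at P5 and again at P8. It was at 9993, 11072 and 9939 at t0, at 7103, 8456 and 7739 at 36 h and at 21408, 24379 and 26589 at P1. At P5 the values were 51200, 115114 and 51058, and at P8 they were 144860, 348182 and 141775. Between successive stages of these 5 the libraries did not overlap, although P2 and P3 overlapped with P1. Experiment r2 was the highest at P5 and P8, and the other experiments lay close together. The smooth muscle and fibroblast markers summed to 50.4, 78.6 and 49.0 TPM at t0 and 63.0, 89.5 and 50.4 TPM at 36 h. At P1 these markers summed to 320, 227 and 239 TPM, and their part in the level of *SPARC* was not tested.

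*FN1* stayed between 8362 and 24225 in the passages P2 to P6 and P1 of r2 and r3, and was higher in the late cultures. It was at 4084, 3773 and 3257 at t0, 11964, 12799 and 13358 at P5, and 21491, 37859 and 42310 at P8. P10 held 37910, 56429 and 80588, the highest mean of the whole cultures (58309 ± 21401, SD, n = 3). P1 of r1 was the exception at 2934, below each of the t0 libraries.

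*THBS1*, a trimeric glycoprotein known to activate latent TGF-β, stayed near or under its t0 level up to P5 and was high later. Its counts were 1469, 1770 and 1418 at t0, 397.3, 1097 and 448.6 at 36 h, and 1588, 2090 and 1228 at P5. By P8 they were 5258, 29077 and 11260. Thus t0 and P5 overlapped, while the 3 P8 libraries exceeded both groups and spread widely. At P10 r2 was at 1631, beside 18143 in r1 and 10470 in r3.

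*THBS2*, its paralogue, ran the other way. It was at 1274, 1217 and 899.5 at t0, 1649, 1899 and 400.9 at 36 h and 455.4, 135.5 and 63.3 at P1. In the later whole cultures it lay between 3.55 and 169.4. Experiment r3 was already low at 36 h. It was also the lowest in the pluripotent markers *POU5F1* and *NANOG*, whose summed TPM was 1591, 1094 and 595.0 at 36 h, and at P1 these markers, at 889.8, 18.8 and 5.07 TPM, took the same order as *THBS2*. Their part in the level of *THBS2* was not tested.

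*POSTN*, a matricellular protein of collagen-rich connective tissue, was high for a few passages, which differed between experiments, and lower afterwards. Levels at t0 were 92.5, 84.7 and 84.6. In r2 and r3 it reached 936.1 and 353.1 at P2 and 1209 and 3046 at P3, whereas r1 stayed at 26.1 and 24.1 and at 16.8 at P4. At P5 r1 held 1915, beside 522.9 in r2 and 1874 in r3. By P8 the values were 147.7, 49.4 and 853.7. The passage at which *POSTN* became high thus differed between experiments.

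*VCAN* and *FBN2*, the large structural members, changed over a narrower range. *VCAN* lay at 16544, 13603 and 11976 at t0 and at 50222, 46031 and 53406 at P5, its highest group mean among whole cultures, and it was at 42872, 24546 and 44105 at P8. *FBN2* lay at 4246, 4000 and 4166 at t0, 19069, 19768 and 22132 at P5 and 25398, 13058 and 16927 at P8. For both genes every P5 and P8 library lay above every t0 library. *MAMDC2*, a secreted protein with MAM domains of little-known role, was at 573.3, 648.7 and 520.9 at t0, was at 66.1, 62.6 and 99.1 at P5 and at 104.4, 822.6 and 169.9 at P8.

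P8 against t0 summed these courses. Of the 10 members, 7 passed as higher and 1 (*THBS2*) as lower, against 7.66% of all genes that passed as higher and 7.67% as lower. The rise of *EGFLAM* is not independent of its listing, and the P8 cultures come from the experiments whose P5 fractions chose the genes. These counts are therefore a description. The median log2 fold change was 2.63 over the members and 0.02 over all genes. The log2 fold changes (edgeR, ± SE) were 6.57 ± 0.97 for *EGFLAM* (adjusted p 7.4e-06), 6.11 ± 1.07 for *TNC* (adjusted p 5.4e-05) and 4.27 ± 0.58 for *SPARC* (adjusted p 2.1e-06). They were 3.20 ± 0.74 for *THBS1* (adjusted p 0.001), 3.11 ± 0.50 for *FN1* (2.1e-05), 2.14 ± 0.41 for *FBN2* (0.00017) and 1.37 ± 0.37 for *VCAN* (0.0037). *THBS2* fell by 4.64 ± 0.81 on the log2 scale (adjusted p 5.2e-05). *POSTN* (1.41 ± 1.34, adjusted p 0.40) and *MAMDC2* (-0.66 ± 1.01, adjusted p 0.62) did not pass, and their groups overlapped. Leaving out r3 left 4 of the 8 calls (*TNC*, *FN1*, *SPARC* and *EGFLAM*), with adjusted p of 0.014 for *THBS1*, 0.010 for *THBS2*, 0.11 for *VCAN* and 0.014 for *FBN2*, and leaving out r2 ended that of *VCAN* (0.019).

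Markers of several cell types moved over the same span. The 5 smooth muscle and fibroblast markers summed to between 49.0 and 78.6 TPM at t0 and to 732.5, 1630 and 515.5 TPM at P8 in the order r1 to r3, and all 5 had more than 3 counts in every t0 and P8 library. Experiment r2, the highest of these, was also the highest in *SPARC*, *THBS1*, *TNC*, *MAMDC2* and *THBS2* at P8. There r3 was the highest in *FN1*, *POSTN*, *VCAN* and *EGFLAM*, and r1 in *FBN2*. The NC markers summed to between 58.3 and 63.2 TPM at t0 and to 266.7, 643.8 and 1075 TPM at P8. The lateral plate and limb markers went from between 0.26 and 0.46 TPM, with 1 of 4 above 3 counts, to between 228 and 293 TPM, with 3 of 4. Nearly all of that sum was *PRRX1*, at 20.8 ± 1.44 normalized counts at t0 and 19603 ± 2242 at P8 (SD, n = 3), while *HAND2*, *PITX1* and *TBX4* were at 0 in every t0 library. Other lists were lower at P8. The pluripotent markers summed to between 1662 and 1854 TPM at t0 and between 0.01 and 0.42 TPM at P8, the 4 endothelium markers to between 49.3 and 56.5 TPM and between 2.18 and 10.4 TPM, and the epithelial PNP markers to between 1095 and 1269 TPM and between 167 and 705 TPM. Paraxial mesoderm markers overlapped between t0 (7.22 to 9.55 TPM) and P8 (4.52 to 15.9 TPM), as did the 4 neuron markers (140 to 176 TPM and 173 to 233 TPM). The part of these cell types in the members' changes was not tested.

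**Figure D2:**
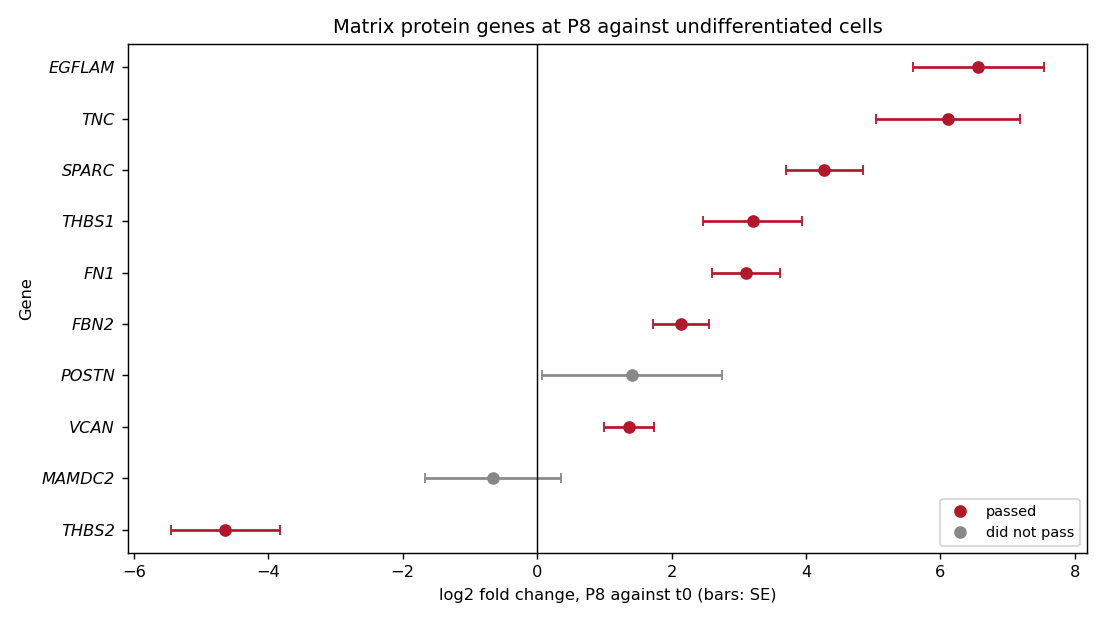
Log2 fold change of P8 against t0 from edgeR for each gene, with bars of 1 SE and n = 3 in both groups. Red points passed the adjusted p, fold and mean thresholds. *EGFLAM*, *TNC* and *SPARC* lie farthest to the right, and *THBS2* alone passed to the left.

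Single steps of the course rarely passed. At P1 against 36 h 0 members passed in edgeR, against 1.19% of all genes, while 4 had an unadjusted p under 0.05 (23.4% of genes) and DESeq2 called 1, *THBS2* (log2 fold change -2.71), against 2.63% of genes. In edgeR *THBS2* was -2.72 ± 0.74 (adjusted p 0.024), and *SPARC* was 1.64 ± 0.52 (adjusted p 0.049) with no overlap. Without P1 of r1, *THBS2* passed in edgeR (-3.48, adjusted p 0.0080), and without all of r1, *TNC* did too (-3.66, adjusted p 0.0042). At P3 against P1 0 members passed in edgeR, against 1.09% of genes, 3 had an unadjusted p under 0.05 (21.1%) and DESeq2 called 0, against 2.44%. Without r1, *VCAN* (1.22, adjusted p 0.0030) and *MAMDC2* (-5.64, adjusted p 0.0022) passed there.

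Later steps were alike. At P5 against P3 0 members passed in edgeR (0.0138% of genes), 2 had an unadjusted p under 0.05 (7.1%) and DESeq2 called 0 (0.267%). *SPARC*, at 1.58 ± 0.52 (adjusted p 0.36), and *TNC*, at 1.90 ± 0.89 (adjusted p 0.67), were higher in 3 of 3 experiments with no overlap. So was *VCAN*, by a smaller change of 0.36 ± 0.37 (edgeR adjusted p 0.98). At P8 against P5 0 members passed in edgeR (0.0092% of genes), 5 had an unadjusted p under 0.05 (13.3%) and DESeq2 called 1, *THBS1* (3.14), against 0.713% of genes. In edgeR *THBS1* was 3.13 ± 0.74 (adjusted p 0.062) and *EGFLAM* was -2.08 ± 0.71 (adjusted p 0.18). At P9 and P10 against P8 0 members passed in edgeR (1.25% of genes), 2 had an unadjusted p under 0.05 (26.2%) and DESeq2 called 0 (3.4%). *SPARC* was at 49172 and 69608 at P9 and at 285432, 23302 and 85126 at P10, with r1 high, and its log2 fold change against P8 was -1.25 ± 0.45 (adjusted p 0.076). Without P10 of r1, the library that lay near P8, *SPARC* fell by 1.82 on the log2 scale and passed (adjusted p 0.0012). *EGFLAM* lay the other way, at 2170 and 1939 at P9 and at 2143, 6668 and 1344 at P10, with a log2 fold change of 1.85 ± 0.67 (edgeR adjusted p 0.077). Epithelial PNP markers summed to 435.1 TPM in P10 of r1 against 7.62 and 6.84 TPM in the other P10 cultures. At P9 they summed to 17.7 and 19.0 TPM, and at P8 to 167 to 705 TPM. NC markers summed to 1285 and 1336 TPM at P9 and 392, 1096 and 1192 TPM at P10 (267 to 1075 TPM at P8). Smooth muscle and fibroblast markers summed to 193 and 295 TPM, then 527, 173 and 301 TPM (515 to 1630 TPM at P8). Lateral plate and limb markers summed to 408 and 493 TPM, then 260, 489 and 540 TPM (228 to 293 TPM at P8). The part of these cell types was not tested.

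The fractions show whether each gene was higher in the one enriched for epithelial cells or the one enriched for mesenchymal cells. At P5, 7 of the 9 members that averaged 100 normalized counts or more were higher in MES than in EPI in each of the 3 experiments, all 7 with every MES library above every EPI library (of all genes at that level, 31.5% were higher in each experiment and 17.7% had no overlap). Since P5 chose these genes, nothing is read from that count. *TNC* and *SPARC* were lower in MES in all 3 experiments, and *THBS2* differed in sign between experiments.

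**Figure D3:**
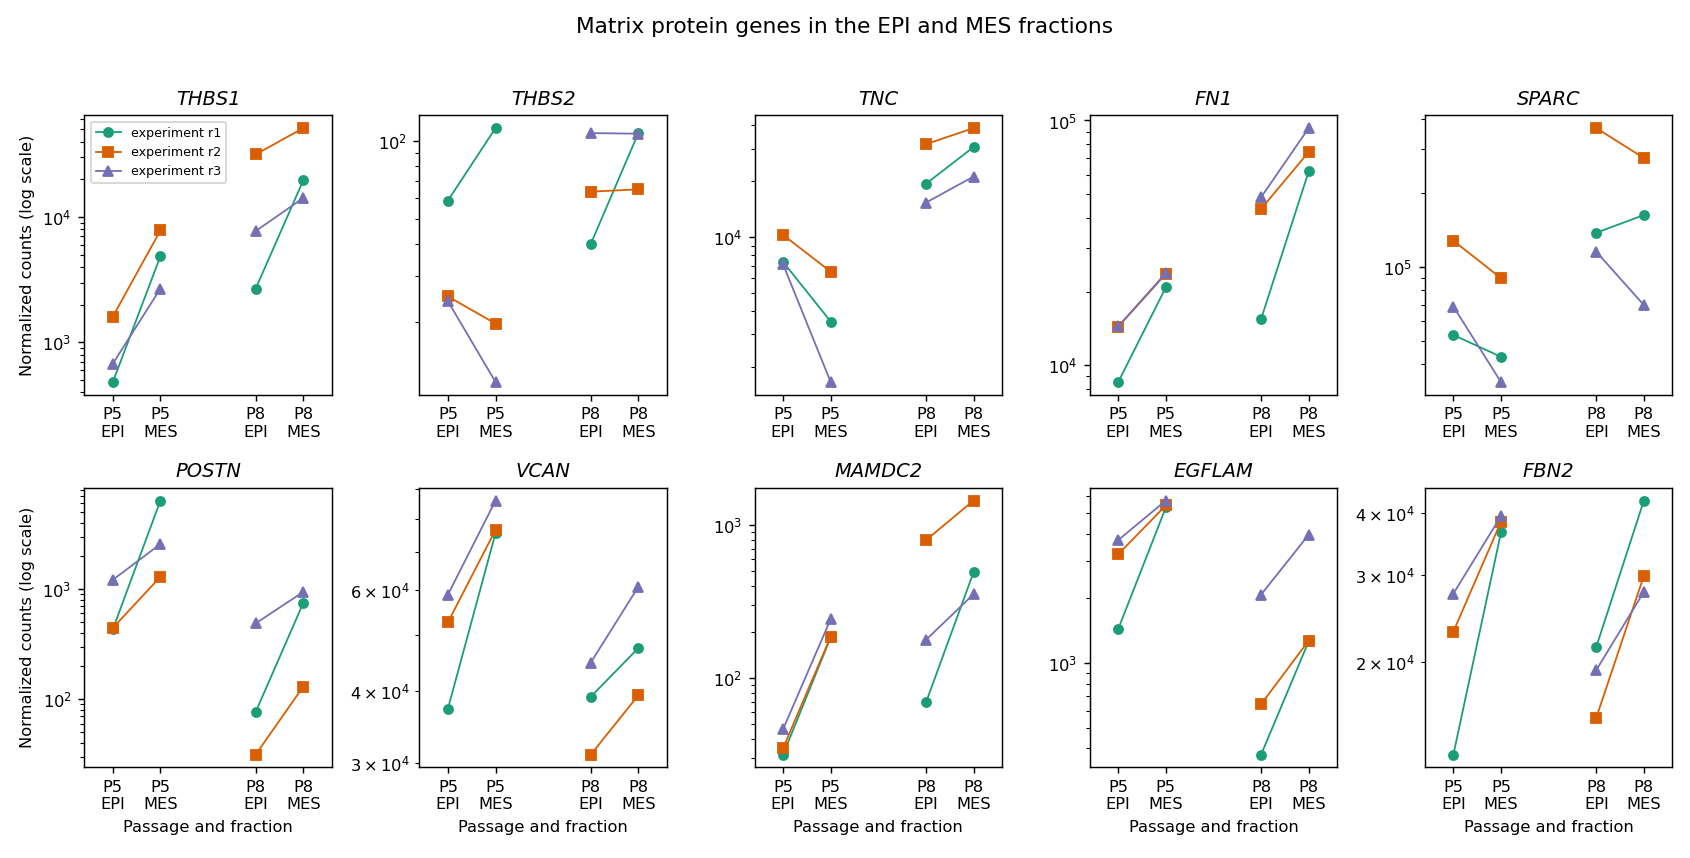
Normalized counts (log scale, a separate scale per gene) of the 10 genes in the EPI and MES fractions of P5 and P8, where each line joins the fractions of an experiment. Lines of *TNC* fall from EPI to MES at P5 and rise at P8, while those of *FN1*, *VCAN*, *EGFLAM* and *FBN2* rise at both passages.

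*THBS1*, *POSTN* and *MAMDC2* had the widest P5 gaps, while *THBS2* had the narrowest (-0.15 ± 1.00 as a mean log2 MES to EPI ratio, SD over 3 experiments). *THBS1* was at 482.3, 1605 and 675.7 in EPI and 4874, 7822 and 2688 in MES, a mean log2 MES to EPI ratio of 2.54 ± 0.71 (SD over 3 experiments). *POSTN* was at 429.7, 442.8 and 1213 in EPI and 6370, 1293 and 2565 in MES (2.17 ± 1.51). *MAMDC2* was at 31.5, 34.7 and 46.2 in EPI and 184.8, 186.7 and 243.2 in MES, with ratios that differed little between experiments (2.46 ± 0.08). Experiment r1 gave the largest ratio for all 3 of these genes. For *POSTN* it was 14.8-fold in r1 against 2.92-fold in r2 and 2.12-fold in r3, and the mean was 2.49-fold without r1 in place of 4.51-fold.

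Structural members differed less at P5. The mean log2 ratio was 1.08 ± 0.70 for *EGFLAM*, 0.92 ± 0.51 for *FBN2*, 0.91 ± 0.33 for *FN1* and 0.70 ± 0.28 for *VCAN*. The MES libraries of these genes differed less than the EPI libraries, of which r1 was the lowest for each gene. *FBN2* was at 36596, 38483 and 39506 in MES and at 13014, 23060 and 27527 in EPI. *EGFLAM* likewise was at 5321, 5433 and 5728 in MES and at 1441, 3218 and 3745 in EPI. For *FN1* the EPI libraries of r2 and r3 were close, at 14366 and 14406, beside 8529 in r1. *TNC* went the other way, with 7362, 10293 and 7148 in EPI and 3513, 6522 and 1659 in MES (-1.28 ± 0.75). *SPARC* was also the higher in EPI, with 52692, 127497 and 68796 against 42963, 89719 and 33889 in MES (-0.61 ± 0.37).

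P8 fractions did not enter the choice of the genes, although they come from the experiments sampled at P5. At P8, 8 of the 9 members at that level were higher in MES in all 3 experiments, against 22.9% of all such genes, and for 2 of them (*FN1* and *FBN2*) every MES library lay above every EPI library, against 4.43%. In edgeR 0 members passed and 0 of 18049 genes did (0%), while 8 members and 3268 genes (18.1%) had an unadjusted p under 0.05. DESeq2 called 3 members as higher in MES, *POSTN*, *MAMDC2* and *EGFLAM*, against 1.04% of genes called higher. The median log2 fold change in edgeR was 1.03 over the members and -0.01 over all genes.

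*FN1* was at 15448, 43535 and 48589 in P8 EPI and 61997, 74363 and 93136 in P8 MES, a log2 difference of 1.24 ± 0.26 (SE, edgeR adjusted p 0.16). *FBN2* was at 21469, 15442 and 19280 in EPI and 42458, 29928 and 27757 in MES (0.83 ± 0.12, adjusted p 0.13). These were the genes whose groups were apart. *EGFLAM* was at 374.0, 642.2 and 2086 in EPI and 1263, 1273 and 3969 in MES (1.22 ± 0.19, adjusted p 0.13 in edgeR and 2.5e-07 in DESeq2). The ratio of *EGFLAM* was 3.38-fold, 1.98-fold and 1.90-fold in the experiments although the groups overlapped, since r3 was high in both fractions.

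*POSTN* was at 76.4, 31.4 and 487.8 in P8 EPI and 748.5, 130.1 and 942.0 in P8 MES (2.07 ± 0.49, adjusted p 0.17 in edgeR and 0.00010 in DESeq2). *MAMDC2* was at 69.1, 796.9 and 177.6 in EPI and 491.9, 1448 and 353.5 in MES (1.51 ± 0.42, adjusted p 0.20 in edgeR and 0.0027 in DESeq2). *THBS1* was at 2683, 31577 and 7720 in EPI and 19626, 51254 and 14197 in MES (1.46 ± 0.47, edgeR adjusted p 0.23). For these 3 genes r1 again gave the largest ratio, and without r1 the mean P8 ratio was 2.83-fold in place of 4.28-fold for *POSTN*, 1.90-fold in place of 2.95-fold for *MAMDC2* and 1.73-fold in place of 2.79-fold for *THBS1*. *VCAN* was closer between fractions (0.36 ± 0.07, edgeR adjusted p 0.16), as was *THBS2* (0.49 ± 0.36, adjusted p 0.50), whose mean lay under 100 normalized counts. *SPARC* was at 137335, 366255 and 115065 in EPI and 162123, 276478 and 69714 in MES, with no direction shared by the experiments (-0.29 ± 0.20, adjusted p 0.48).

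*TNC* lay on opposite sides at the passages. At P8 it was at 19402, 31669 and 15358 in EPI and 30582, 38701 and 21212 in MES, a log2 difference of 0.48 ± 0.09 (SE, edgeR adjusted p 0.16), so MES was higher in all 3 experiments after having been lower in all 3 at P5. Within experiments its P8 level exceeded that at P5 by 3.12 ± 0.55 (SD) on the log2 scale in MES and by 1.37 ± 0.26 in EPI. The difference between the passages was not tested, because the P5 fractions chose the genes.

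**Figure D4:**
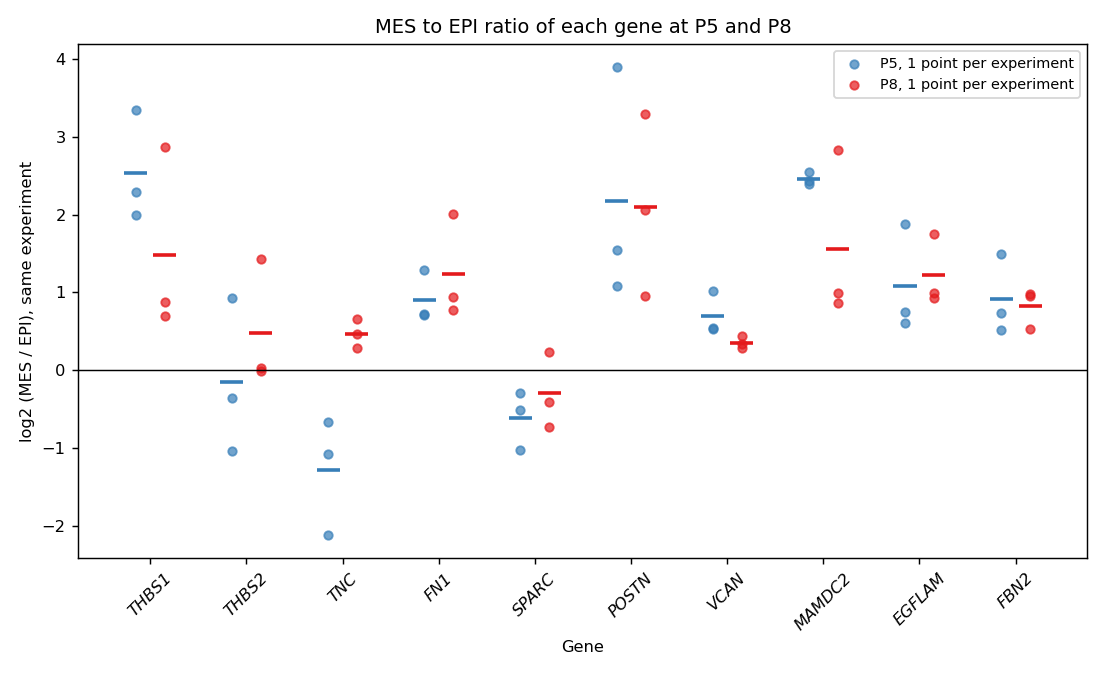
Log2 ratio of MES to EPI within each experiment at P5 (blue) and P8 (red), with a bar at the mean of the 3 experiments. *TNC* lies below 0 at P5 and above 0 at P8 in all 3 experiments, and *SPARC* is below 0 in all 3 at P5 and in 2 of 3 at P8.

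Some other members also differed between P5 and P8 in like directions in both fractions. *THBS1* was higher at P8 by 3.43 ± 0.91 on the log2 scale in EPI and by 2.37 ± 0.35 in MES (SD over 3 experiments, no test). *FN1* was higher by 1.40 ± 0.48 in EPI and 1.73 ± 0.21 in MES, and *SPARC* by 1.22 ± 0.42 and 1.53 ± 0.45. *MAMDC2* was higher by 2.53 ± 1.77 in EPI and 1.64 ± 1.22 in MES, with a wide spread between experiments. *POSTN* was lower by a mean log2 ratio of -2.54 ± 1.25 in EPI and -2.62 ± 1.02 in MES, and *EGFLAM* by -1.71 ± 0.77 and -1.57 ± 0.90, in 3 of 3 experiments each. The whole culture of an experiment lay between its own fractions in 23 of 30 gene and experiment pairs at P5 and in 16 of 30 at P8.

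Other matrix genes give the setting of these changes. A list of 67 further matricellular, microfibril, proteoglycan and basement membrane genes was matched in full, and 64 were tested over the time course. At P8 against t0 21 passed as higher and 8 as lower, which was 45.3% of those tested against 15.3% of all genes, with a median log2 fold change of 1.01 (edgeR). The list was not matched to all genes by level and was chosen with earlier results of these data known, so these shares are a description. The largest rises were in *SRPX2* (from 0 to 219.0 ± 138.0 normalized counts, SD, n = 3), *DCN*, the collagen-binding proteoglycan decorin (from 2.03 ± 1.76 to 1898 ± 1665), and *LUM*, the related lumican (from 12.6 ± 2.67 to 9987 ± 8328). Among the members' relatives, *TGFBI*, a periostin paralogue, rose by a log2 fold change of 6.38 ± 0.51 (adjusted p 1.2e-09), *FBN1* by 3.23 ± 0.37 (2.5e-07) and *THBS3* by 3.37 ± 0.63 (0.00012), whereas *THBS4* fell by 1.84 ± 0.43 on the log2 scale (0.0011). The largest falls were in *NCAN*, the brain proteoglycan neurocan (log2 fold change -4.30), the link protein gene *HAPLN3* (-4.01) and the fibulin-like *EFEMP1* (-2.90).

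In the single steps the share of the list that passed was 3.12% at 36 h against t0 (2.69% of all genes), 4.69% at P1 against 36 h (1.19%), 9.38% at P3 against P1 (1.09%) and 1.56% at P9 and P10 against P8 (1.25%). At 36 h *EFEMP1* (log2 fold change 2.22) and *BGN* (2.38) rose. At P1 against 36 h the basement membrane linkers *NID1* (1.45) and *NID2* (1.82) and *ECM1* (2.54) rose. At P3 against P1 *LUM* (7.20), *TGFBI* (4.68), *EMILIN1* (2.17) and *FBLN1* (1.54) rose, while *EFEMP1* (-2.31) and *VWA1* (-1.39) fell. At P9 and P10 against P8 *MFAP2* (1.14) rose. None of the listed genes passed at P5 against P3, at P8 against P5 or between the P8 fractions in edgeR, and in the last of these 47 of 61 tested had a positive log2 fold change, with a median of 0.54 beside -0.01 over all genes.

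Genes with courses most like those of the members were sought over the 16 group means, among the 13293 genes that averaged 100 normalized counts or more over all libraries. This is a description over groups that share experiments. *THBS1* was followed most closely by *CYR61* (Pearson's r = 0.96), which encodes the matricellular protein CCN1, by *CSDC2* (0.95) and by the integrin subunit gene *ITGAV* (0.945). *EGFLAM* was followed by *LEF1* (0.97), a nuclear effector of WNT signaling, and *ROR2* (0.97), a WNT receptor, and *POSTN* by *ADGRG6* (0.96) and *NR2F1* (0.95). For *FN1* they were *EMP3* and *TPST1* (both 0.96), for *VCAN* *EFNB2* (0.97), which encodes the membrane ligand ephrin B2, for *TNC* *AC025423.2* (0.94) and *KIAA0232* (0.94), and for *SPARC* *SLC35F5* (0.965) and *SLC35B2* (0.96). *FBN2* was most like *MTR* (0.96), *MAMDC2* like *FAM69A* (0.94) and *THBS2* like *PFKFB2* (0.97).

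The genes do not lie together: on GRCh38 (GENCODE 29) *EGFLAM* (ENSG00000164318, 38258409-38465021), *VCAN* (ENSG00000038427, 83471465-83582303), *FBN2* (ENSG00000138829, 128257909-128659185) and *SPARC* (ENSG00000113140, 151661096-151687165) are on chromosome 5, *MAMDC2* (ENSG00000165072, 70043581-70226970) and *TNC* (ENSG00000041982, 115019578-115118257) on chromosome 9, and the others on separate chromosomes. *THBS1* is on chromosome 15 (ENSG00000137801, 39581079-39599466), *THBS2* on chromosome 6 (ENSG00000186340, 169215780-169254044), *FN1* on chromosome 2 (ENSG00000115414, 215360440-215436172) and *POSTN* on chromosome 13 (ENSG00000133110, 37562583-37598844). Several are overlapped by genes on the other strand, of which *FSIP1* at *THBS1* (median 91.2 normalized counts against 1631) and *SLC27A6* at *FBN2* (27.8 against 15603) were the most abundant by median, while relative to the member they were highest at *THBS2* (*BX322234.1*, 6.51 against 62.3) and *MAMDC2* (*SMC5-AS1*, 16.5 against 154.5), and how the counting used strand is not given in the sources used here. The 250 bases upstream of the RefSeq starts (GRCh38.p14) gave 12 windows for the 10 genes, with 2 starts each for *EGFLAM* and *MAMDC2*. Exact TATAAA, on either strand, stood in the windows of *THBS2*, *POSTN* and the upstream start of *MAMDC2*, but not at its downstream start. In each of these 3 it lay from base 29 to base 24 before the start, and 10.7% of all 35116 windows held it somewhere. These windows are shown because their genes are the 3 members that did not pass as higher at P8 against t0. This grouping was noticed after the values were known and was not tested. It rests on the exact letters, as the windows of *TNC* and *FN1*, which passed as higher, held TATAAG close to the start. In the lines below, capitals mark TATAAA, the AP-1 letters TGANTCA and the TEAD letters GGAATG, all on either strand.
*THBS2*, chr6:169253847-169254096, minus strand: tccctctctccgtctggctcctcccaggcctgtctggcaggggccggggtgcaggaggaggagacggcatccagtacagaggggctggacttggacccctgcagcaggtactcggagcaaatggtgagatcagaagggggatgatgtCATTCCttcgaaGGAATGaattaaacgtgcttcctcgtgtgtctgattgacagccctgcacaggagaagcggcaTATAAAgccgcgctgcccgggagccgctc
*POSTN*, chr13:37598769-37599018, minus strand: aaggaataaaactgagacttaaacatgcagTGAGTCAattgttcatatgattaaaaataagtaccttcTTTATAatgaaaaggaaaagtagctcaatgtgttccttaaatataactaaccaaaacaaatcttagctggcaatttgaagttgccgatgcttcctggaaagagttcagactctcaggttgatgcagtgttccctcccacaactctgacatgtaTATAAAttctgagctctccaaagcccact
*MAMDC2*, chr9:70043331-70043580, plus strand: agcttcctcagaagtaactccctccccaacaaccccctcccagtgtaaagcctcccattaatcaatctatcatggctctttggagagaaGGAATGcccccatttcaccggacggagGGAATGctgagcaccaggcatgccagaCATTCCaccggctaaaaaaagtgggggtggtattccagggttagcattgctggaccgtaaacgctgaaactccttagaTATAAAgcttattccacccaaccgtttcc
GGAATG stood in 5 of the 12 windows, against 11.9% of all windows, those of *THBS1*, *THBS2*, *SPARC*, the upstream start of *MAMDC2* and the downstream start of *EGFLAM*. TGANTCA stood in that of *POSTN* alone (6.57% of all windows), and the E-box letters CAGGTG in 0 of 12 (17.5% of all windows). These letters are a description of the windows and not binding sites.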

How the data were processed

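Bulk polyA RNA-seq of 47 libraries was analysed. The authors trimmed reads with cutadapt 1.16, aligned them with STAR 2.5.2b and quantified genes with RSEM 1.3.0 on GRCh38, per the labels' processing notes. They deposited expected counts per gene, estimated counts of which 9.33% were not whole because RSEM divides shared reads, and TPM, which the authors' RSEM run scaled per library by effective length. Annotation release and strand setting are not given in the sources used here. Of 58051 genes, 57447 were matched to GENCODE 29. Reads carried no molecular identifiers, so depth speaks to counting error only.

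Expected counts were rounded, and normalized counts are these divided by TMM size factors of the 47 libraries. Comparisons used edgeR 4.0.16 (glmQLFit and glmQLFTest, filterByExpr, Benjamini-Hochberg adjustment over all genes tested) in R 4.3.3, with the experiment number as a block. P8 fractions were fitted by themselves and the 35 whole cultures together. Each SE of an edgeR log2 fold change is that change's absolute size divided by the square root of the test's F statistic. Calls needed an adjusted p under 0.01, a change of 2-fold or more and an average of 100 normalized counts or more. The pairing comes from the series' design text, which makes each replicate number an experiment. Deviations of same-numbered libraries from their group means correlated at a mean of 0.78 between the P8 fractions, 0.31 between P5 and P8, 0.24 between P8 and P10, 0.20 between 36 h and P1, 0.18 between P3 and P5 and 0.11 between t0 and P8, but not between t0 and 36 h (-0.01) or P1 and P3 (0.02), and r2 alone was negative between 36 h and P1 (-0.12) and between P8 and P10 (-0.09). DESeq2 1.42.0 and other settings were alternatives. No pair of replicates agreed within sampling noise. The scripts were tested on simulated data. Members, lists and tests were chosen with earlier results of these data known. Named genes were the members, up to 3 listed matrix genes with the largest change in each direction per comparison, up to 3 genes of most like course per member, and markers; *TGFBI*, *FBN1*, *THBS3*, *THBS4* and *FBLN1* were named as relatives or beyond that limit after their values were seen.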

Additional observations from a re-analysis of the deposited data

Results flagged for a closer look

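The MES to EPI ratio of *TNC* took opposite signs at the 2 passages in every experiment. Its mean log2 ratio was -1.28 at P5, with MES lower in 3 of 3 experiments, and 0.47 at P8, with MES higher in 3 of 3. The difference between the passages was not tested, since the P5 fractions had a part in the choice of the genes. Groups of 3 or fewer libraries were too small for a rule on single outlying values. P1 and P10 of r1 were set apart above by their distance to other libraries and not by such a rule.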

How the results depend on the processing

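Of 109 recounts of the members past the threshold under alternative settings, 94 were within 1.5 times of the value reported and 15 were not, and no called log2 fold change of a member reversed. DESeq2 gave 3 members between the P8 fractions where edgeR gave 0, 1 at P1 against 36 h and 1 at P8 against P5. At 36 h against t0 the count of 2 became 1 with at least 10 counts in every library, 1 with only the compared time points in the fit and 4 at an adjusted p under 0.05, and at P1 against 36 h the count of 0 became 2 at that level. With an experiment left out in turn, the counts ran from 0 to 4 at 36 h against t0, from 0 to 2 at P1 against 36 h, from 0 to 2 at P3 against P1 and from 4 to 8 at P8 against t0. P1 against 36 h gave 1 without P1 of r1, an alternative chosen after seeing the data, and P9 and P10 against P8 ran from 0 to 1, the latter without P10 of r1. Without the replicate block the counts of members were 0 between the P8 fractions, 2 at 36 h and 8 at P8 against t0, as with it, and no member's call changed, although all genes called at P9 and P10 against P8 went from 271 to 37. Over the alternatives, all genes called ran from 83 to 986 at 36 h (585 reported), from 0 to 952 at P1 (259), from 0 to 820 at P3 (238), from 0 to 58 at P5 (3), from 0 to 155 at P8 against P5 (2), from 0 to 1006 at P9 and P10 (271), from 2097 to 5959 at P8 against t0 (3336) and from 0 to 205 between the P8 fractions (0). The cause was not tested. With TPM, an alternative added after seeing the data, 0 of 20 mean MES to EPI ratios moved by more than 1 SD. With an experiment left out, also added then, 4 of 60 mean ratios moved by over 1.5 times, all without r1, those of *POSTN* at P5 (4.51-fold to 2.49-fold) and of *POSTN* (4.28-fold to 2.83-fold), *THBS1* (2.79-fold to 1.73-fold) and *MAMDC2* (2.95-fold to 1.90-fold) at P8. The log2 ratio of P8 to t0 for *THBS2* was -4.05 from TPM, further from its reported value than 1 SD. Between the P8 fractions 0 genes passed in edgeR under the main settings and 20 without the count filter, with 0 members in both. The reason was not tested.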
